A study of Mus musculus with 24 samples.

Results

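The LIM homeobox factors are a family of transcription factors that specify cell types in the embryo, and 10 of their genes were followed here through loss of PRC1 and loss of its catalytic activity in mouse embryonic stem cells (ESCs). They are Lhx1, Lhx2, Lhx3, Lhx4, Lhx5, Lhx6, Lhx8, Lhx9, Isl1 and Isl2, chosen by name from the 19409 gene symbols of the deposited expression table. Lhx2 and Lhx9 had more than 1 transcript in the table, and the transcript with the largest sum over the 12 libraries was used. The study compared 2 ESC lines of the E14 strain, each a single clone, before treatment (UNT) and after 72 h with 800 nM 4-hydroxytamoxifen (OHT), by calibrated RNA-seq (cRNA-seq), in which Drosophila SG4 cells are added to a fixed number of ESCs so that expression is measured per cell. Both lines carry CreERT2 at Rosa26, which OHT activates. PRC1CKO cells (clone B9) lack Ring1a in all conditions (Ring1a-/-), and OHT deletes the floxed first coding exon of Ring1b (Ring1bfl/fl), which removes all PRC1. PRC1CPM cells (clone 41) carry the Ring1a substitutions I50A and D53K in all conditions, and OHT switches Ring1b to a form with I53A and D56K, which leaves PRC1 without catalytic activity. Cells were grown on gelatin with serum and LIF, and no OHT-treated cells without a conditional allele were analysed here, so that an effect of OHT or of Cre cannot be told apart from that of the alleles. Each of the 4 conditions had 3 replicates, with 14668159 to 27016156 reads on genes per library. The 12 matched genomic DNA libraries served for calibration and carry no gene expression.

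LIM homeobox proteins join a DNA-binding homeodomain to a pair of LIM zinc fingers, and the LIM fingers bind the cofactor LDB1, which dimerises and so links LIM homeobox proteins into larger complexes. Combinations of these factors define neurons, as with ISL1 and LHX3 in spinal motor neurons, and they also build the pituitary, eye, limb, gonad and pancreas. In ESCs, genes of this kind are classical Polycomb targets. PRC1, the Polycomb complex whose RING1A or RING1B subunit places ubiquitin on histone H2A, keeps such developmental genes silent, and the comparison of the lines asks how much of that silencing rests on the ubiquitin ligase activity.

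The members lie on 7 chromosomes, with Lhx2, Lhx3 and Lhx6 on chromosome 2 and Lhx4 and Lhx9 on chromosome 1. On GRCm38 the shortest gene body was that of Isl2 (NM_027397, chr9:55541149-55546178, plus strand, 6 exons) and the longest that of Lhx4 (NM_010712, chr1:155701694-155742027, minus strand, 6 exons). Counts are taken here as covering whole gene bodies, introns included, and exons make up 4.59% of the body of Lhx4 and 44.7% of that of Lhx1. The 250 bases before the start of transcription are shown for the members at the extremes of the response, Lhx8 and Isl2 with the largest and Lhx6 and Lhx3 with the smallest log2 fold changes in PRC1CKO cells at a pseudocount of 1, written 5′ to 3′ on the strand of the gene with each CG dinucleotide, the base step at the core of CpG islands, in capitals. They are RefSeq promoter sequences of GRCm38.p6 at chr3:154330561-154330810 (minus strand), chr9:55540899-55541148 (plus strand), chr2:36104061-36104310 (minus strand) and chr2:26206576-26206825 (minus strand).
Lhx8: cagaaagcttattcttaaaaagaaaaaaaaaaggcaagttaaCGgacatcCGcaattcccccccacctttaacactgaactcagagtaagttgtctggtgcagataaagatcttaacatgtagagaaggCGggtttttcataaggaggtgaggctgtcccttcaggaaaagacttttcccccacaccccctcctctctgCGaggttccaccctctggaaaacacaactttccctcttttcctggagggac
Isl2: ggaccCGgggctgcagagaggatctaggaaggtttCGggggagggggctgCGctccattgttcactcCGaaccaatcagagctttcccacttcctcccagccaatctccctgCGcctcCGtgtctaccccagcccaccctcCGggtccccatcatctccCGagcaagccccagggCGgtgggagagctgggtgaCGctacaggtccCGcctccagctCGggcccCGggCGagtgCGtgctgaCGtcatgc
Lhx6: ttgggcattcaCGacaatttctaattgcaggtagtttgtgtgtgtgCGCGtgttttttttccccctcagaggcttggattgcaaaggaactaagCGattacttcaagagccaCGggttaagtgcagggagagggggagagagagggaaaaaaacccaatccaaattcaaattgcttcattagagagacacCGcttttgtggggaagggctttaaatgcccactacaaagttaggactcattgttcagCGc
Lhx3: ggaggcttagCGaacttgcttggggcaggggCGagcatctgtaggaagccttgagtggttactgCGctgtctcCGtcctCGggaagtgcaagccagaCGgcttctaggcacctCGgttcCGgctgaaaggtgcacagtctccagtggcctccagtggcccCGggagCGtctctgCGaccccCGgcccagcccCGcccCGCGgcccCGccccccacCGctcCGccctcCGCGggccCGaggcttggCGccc
Over the same window, CG was found 4 times in Lhx8, 16 times in Isl2, 7 times in Lhx6 and 22 times in Lhx3, against a median of 6 over the 32817 start sites of the RefSeq table. Of these start sites, 62.2% held at least as many CG as Lhx8 and 14.8% at least as many as Lhx3. The start of the transcript used matched the table for 8 of the members, all but Lhx5 and Lhx9, and their CG counts ran from 4 to 33 (Isl1) with a median of 19. The TATA box letters TATAAA, or TTTATA for the other strand, were in none of the 8 windows and in 12.4% of all. The homeodomain core TAATTA, which reads the same on both strands, was in none of the 8 and in 4.85% of all.

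In untreated cells most members were at a few reads, while Lhx6, Lhx2 and Lhx9 had at least 8 reads in every library. Lhx9 reached 57.7 and 41.5 normalised reads in the second replicate of PRC1CKO and PRC1CPM cells. Lhx6, a factor of interneurons from the ventral forebrain, had the highest level per kilobase of gene body in both lines, 3.73 ± 0.979 normalised reads per kb in PRC1CKO and 5.65 ± 1.40 in PRC1CPM cells (SD, n = 3), and every library lay above those of the next member. The following members in that order could not be separated from their neighbours by the spread of the replicates, except that Lhx2 lay apart from Lhx5 and Lhx8 from Lhx4 in PRC1CPM cells. Lhx4, a pituitary and motor neuron factor with the longest gene body, had the lowest mean per kilobase in all 4 conditions. It had 4 reads in all in the untreated PRC1CKO libraries and 2 in the untreated PRC1CPM libraries. Only Lhx2, Lhx6 and Lhx9 reached 10 reads in at least 3 of the untreated libraries. Lhx4, Lhx5 and Lhx8 reached 10 reads in no untreated library, so they entered the test through the OHT-treated libraries alone, and counts over the members that were tested are given as descriptions. A transcript was tested if it had at least 10 reads in at least 3 of the 12 libraries, which held for 16940 transcripts and for all 10 members.

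**Figure D1:**
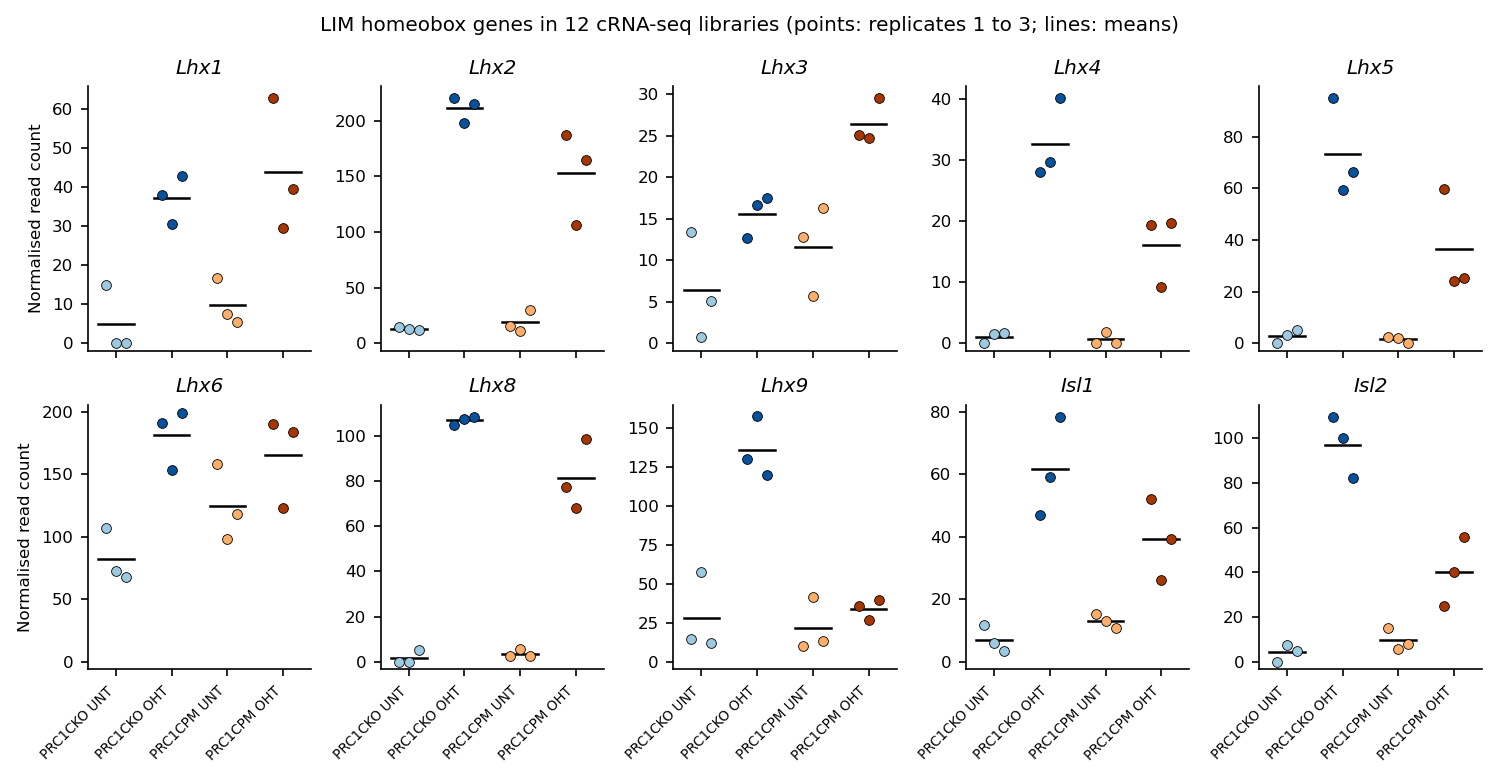
Normalised read count (vertical axis, linear, own scale in each panel) of each LIM homeobox gene in the 12 libraries, with 1 point per library and a line at the mean of 3. The OHT-treated PRC1CKO libraries lie above all untreated PRC1CKO libraries in 9 of 10 panels, and the exception is Lhx3.

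All 10 members were higher after loss of PRC1. After OHT treatment of PRC1CKO cells, each of them was called higher, which means a Benjamini-Hochberg adjusted p under 0.05 from limma over all transcripts tested and a change above 1.5-fold, and 16.5% of all transcripts tested were called higher. The median log2 fold change of the members was 3.92 on the log2(normalised read count + 1) scale, against 0.12 for all transcripts, and the members ranged from 1.15 to 5.88. The size of these changes depended on the pseudocount where untreated libraries had few or no reads, and at a pseudocount of 0.1 the median of the members was 4.81, with 5.6 for Lhx4, 5.93 for Lhx5 and 5.92 for Isl2. In 9 members all 3 treated libraries lay above all 3 untreated ones, as they did for 22.1% of all transcripts. In a bulk measurement, more cells that express a gene and more RNA per cell cannot be told apart.

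The largest increase was that of Lhx8, which acts in cholinergic neurons of the forebrain, in teeth and in oocytes. It had 0, 0 and 5.07 normalised reads in the untreated PRC1CKO libraries, where 6 reads were counted in all, and 105, 107 and 108 after OHT treatment. The treated replicates were tightly grouped, with an SD of 1.73, and the log2 fold change was 5.88 (standard error 0.57, limma adjusted p = 4.98e-12). It was 6.75 without PRC1CKO UNT replicate 3, the 1 untreated PRC1CKO library with reads of Lhx8, and 8.16 at a pseudocount of 0.1. Lhx6, which also acts in the ventral forebrain, had a smaller change. Its untreated values were 107, 72.3 and 67.7 and its treated values 191, 154 and 199, which do not overlap, and the log2 fold change was 1.15 (standard error 0.32, adjusted p = 0.0053). Lhx2, required for the eye, cortex and hair follicle, rose from 14.9, 12.3 and 11.8 to 221, 198 and 215. The groups lay far apart, and the log2 fold change was 3.92 (standard error 0.39, adjusted p = 1.46e-11).

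The motor neuron and pituitary factors included a large change in Isl2. It had 0, 7.70 and 5.07 normalised reads in untreated and 109, 99.97 and 82.0 in OHT-treated PRC1CKO cells. Its log2 fold change was 4.70, with a standard error of 0.57 and an adjusted p of 2.76e-09, and it was 3.74 without PRC1CKO UNT replicate 1 and 5.31 without PRC1CKO UNT replicate 2. Isl1, which specifies motor neurons, pancreatic islets and the second heart field, had 11.9, 6.16 and 3.38 before and 47.0, 59.2 and 78.5 after treatment, and its log2 fold change was 3.05. Lhx4 went from 0, 1.54 and 1.69 to 28.0, 29.6 and 40.1. With 4 reads before treatment, the ratio of summed reads per size factor was 25.8, with a 95% counting interval of 9.79 to 96.3 (exact binomial, counting error only). Lhx3, which acts with Lhx4 in the pituitary and with Isl1 in motor neurons, was the 1 member whose groups overlapped. Its untreated values were 13.4, 0.770 and 5.07 and its treated values 12.7, 16.7 and 17.4, and its call was marginal (log2 fold change 1.61, standard error 0.60, adjusted p = 0.0496). Leaving out PRC1CKO UNT replicate 2 brought that change to 0.81 (adjusted p = 0.461) and leaving out replicate 1 brought it to 2.33, and across the alternatives its adjusted p ran from 0.00306 to 0.461. The call was lost in 8 of the 12 fits that left out 1 library, those without PRC1CKO UNT replicate 2 or 3, without any 1 of the PRC1CKO OHT replicates and without any 1 of the PRC1CPM OHT replicates. It was also lost with edgeR (adjusted p = 0.112), DESeq2 (0.135), the scale without the genomic DNA correction (0.0728), no filter on low counts (0.0651) and a pseudocount of 0.1 (0.0701).

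Lhx1 and Lhx5, paired factors of the head organiser and of cerebellar and spinal neurons, both rose from few reads. Lhx1 was read in 1 untreated PRC1CKO library, with values of 14.9, 0 and 0, and reached 38.0, 30.5 and 42.7, a log2 fold change of 3.91 (standard error 0.66), which was 5.24 without PRC1CKO UNT replicate 1, 6.12 at a pseudocount of 0.1 and 3.03 with DESeq2 (adjusted p = 0.0467). Lhx5 went from 0, 3.08 and 5.07 to 94.9, 59.2 and 66.3, a log2 fold change of 4.65, which was 3.87 without PRC1CKO UNT replicate 1. With 10 reads before treatment, its ratio of summed reads was 23.2 (95% counting interval 12.4 to 48.9). Lhx9, a factor of the gonad and limb, had untreated values of 14.9, 57.7 and 11.8 and treated values of 130, 157 and 120. Its second untreated replicate stood well above the other 2, yet below all treated libraries, and the log2 fold change was 2.57 (standard error 0.48, adjusted p = 3.07e-05). Without that library it was 3.25. After OHT treatment Isl2 had the highest level per kilobase in PRC1CKO cells, 19.3 ± 2.77 (SD, n = 3), apart from Lhx6 at 8.19 ± 1.09, while Lhx4 remained lowest at 0.808 ± 0.163. This order rests on division by the whole gene body, which is shortest in Isl2 and longest in Lhx4. By normalised reads, Lhx2 (211 ± 11.6), Lhx6 (181 ± 24.1), Lhx9 (136 ± 19.5) and Lhx8 (107 ± 1.73) had higher means than Isl2 (97.1 ± 13.9). Lhx3 had the lowest mean by that measure (15.6 ± 2.57, against 32.6 ± 6.58 for Lhx4).

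After loss of catalytic activity alone, 7 of the 10 members were called higher without a replicate block. With the replicate number as a block 8 were, against 17.9% of all transcripts. In PRC1CPM cells Lhx8, Lhx5, Lhx4, Lhx2, Lhx1, Isl2 and Isl1 were called higher after OHT treatment without the block, against 13.1% of all transcripts tested. Lhx3, Lhx9 and Lhx6 were not. The median log2 fold change of the members was 2.05, against 0.0996 for all transcripts, and all 10 estimates were above 0. In 8 members the treated libraries lay above all untreated ones, as for 18.7% of all transcripts. All of the members kept a positive estimate relative to the median of all transcripts under the other scales, TMM and the spike-in without its genomic DNA correction. The latter moved the median of all transcripts from 0.0996 to 0.39 in PRC1CPM cells, and the members' median lay 1.95 above the median of all transcripts with the deposited scale and 1.92 above it without the correction.

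Lhx8, Lhx5 and Lhx4 had the largest estimates, and their order depended on the pseudocount, with 4.52, 5.36 and 5.82 at a pseudocount of 0.1. Lhx8 rose from 2.56, 5.65 and 2.71 normalised reads to 77.2, 68.0 and 98.6 (log2 fold change 4.19, standard error 0.57, limma adjusted p = 1.08e-07). Lhx5 rose from 2.56, 1.89 and 0 to 59.9, 24.0 and 25.2, with 1 treated library well above the others (log2 fold change 3.97, standard error 0.63). With 4 reads before treatment, its ratio of summed reads was 23.1 (95% counting interval 8.78 to 86.1). Lhx4 rose from 0, 1.89 and 0 to 19.3, 9.28 and 19.7. Only 2 reads of Lhx4 were counted before treatment, so the ratio of summed reads, 19.9, had a 95% counting interval of 5.23 to 169. Lhx2 rose from 15.3, 11.3 and 29.8 to 187, 106 and 164 (log2 fold change 3.02, standard error 0.39, adjusted p = 4.38e-08).

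The calls of Lhx1, Isl1 and Isl2 were less firm. Lhx1 went from 16.6, 7.54 and 5.42 to 62.7, 29.4 and 39.4, and its log2 fold change of 2.11 (adjusted p = 0.0198) was not called without PRC1CPM UNT replicate 3 (1.80, adjusted p = 0.0942) or without PRC1CPM OHT replicate 1 (1.83, adjusted p = 0.131). The call of Lhx1 was also lost with TMM (adjusted p = 0.0629), no filter on low counts (0.0596), DESeq2 (0.239) and a pseudocount of 0.1 (0.231). Isl1 went from 15.3, 13.2 and 10.8 to 52.1, 26.3 and 39.4, and its log2 fold change of 1.47 (adjusted p = 0.0313) was not called without PRC1CPM UNT replicate 2 (adjusted p = 0.0535) or 3 (0.118) or without PRC1CPM OHT replicate 1 (0.17) or 3 (0.0968), nor with a pseudocount of 0.1 (0.0561). Isl2 went from 15.3, 5.65 and 8.13 to 25.1, 40.2 and 55.9, and its log2 fold change of 1.98 (adjusted p = 0.0101) was not called without PRC1CPM OHT replicate 3 (1.72, adjusted p = 0.0631), with TMM (0.0518) or with a pseudocount of 0.1 (0.152). In each of these 3 genes the treated and untreated libraries did not overlap. Over all alternatives the adjusted p ran from 0.000216 to 0.239 for Lhx1, from 0.00249 to 0.17 for Isl1 and from 6.39e-05 to 0.152 for Isl2.

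Of the members that were not called, Lhx3 had values of 12.8, 5.65 and 16.3 before and 25.1, 24.7 and 29.6 after treatment (log2 fold change 1.23, 95% interval 0.02 to 2.44, adjusted p = 0.205). Its treated libraries nonetheless lay above all untreated ones. Lhx6 had 159, 98.0 and 118 before and 190, 123 and 184 after treatment, which overlap, although the treated library was higher in 3 of 3 pairs with the same replicate number (0.41, interval -0.23 to 1.04, adjusted p = 0.544). Lhx9 had 10.2, 41.5 and 13.6 before and 35.7, 27.1 and 39.4 after treatment (0.86, interval -0.10 to 1.82, adjusted p = 0.296). As in PRC1CKO cells, the second untreated replicate of Lhx9 stood above the other 2, and here it exceeded all the treated libraries. Without PRC1CPM UNT replicate 2 the log2 fold change of Lhx9 was 1.44 (adjusted p = 0.0278), and with the replicate number as a block it was 0.86 (adjusted p = 0.0409), so that Lhx9 was called in both, against a range of 0.0278 to 0.661 over the alternatives. The block called 17.9% of all transcripts higher.

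**Figure D2:**
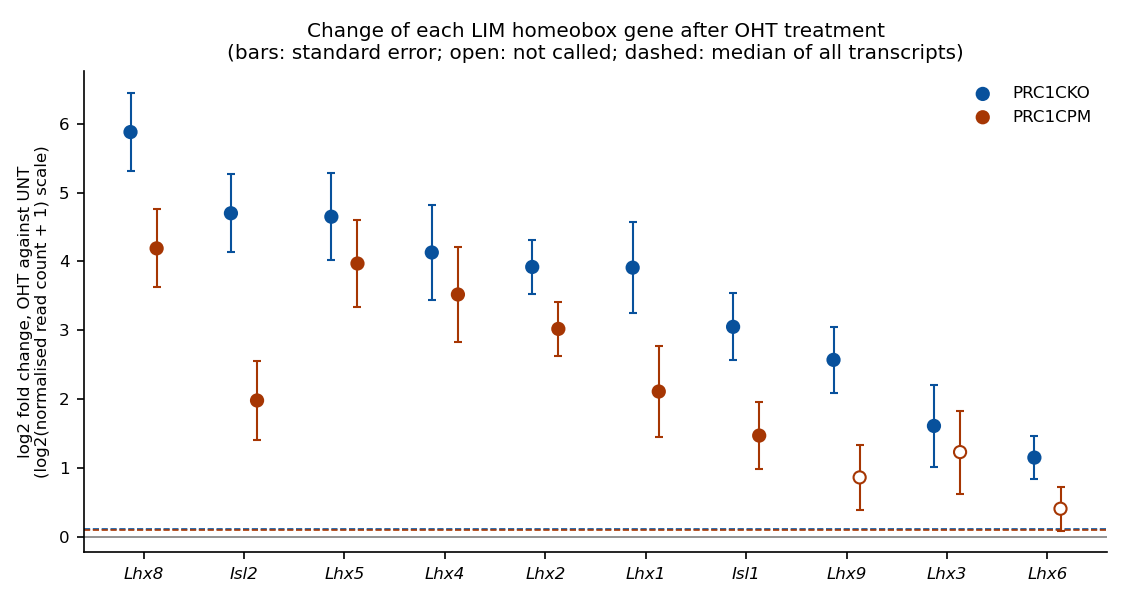
Log2 fold change after OHT treatment of each LIM homeobox gene (horizontal axis, in the order of the change in PRC1CKO cells) with its standard error, from limma over 12 libraries. All 10 points of PRC1CKO cells and 7 of PRC1CPM cells are called, and the dashed lines show the medians of all transcripts at 0.12 and 0.0996.

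In the fit without a replicate block, Lhx9 was the 1 member whose level after OHT treatment differed between the lines by the test. Its treated values were 130, 157 and 120 in PRC1CKO and 35.7, 27.1 and 39.4 in PRC1CPM cells, a log2 difference of -1.97 (standard error 0.48, limma adjusted p = 0.0155), and 0.218% of all transcripts were called lower. The adjusted p was 0.098 without PRC1CKO OHT replicate 2, 0.0527 without PRC1CPM OHT replicate 1 and 0.0796 without PRC1CPM OHT replicate 2, and it was 0.0812 with no filter on low counts and 0.0504 at a pseudocount of 0.1, against a range of 6.25e-07 to 0.098 over the alternatives, and the difference lay between -2.08 and -1.80 in all of them. Isl2 followed, with 109, 99.97 and 82.0 against 25.1, 40.2 and 55.9, a log2 difference of -1.31 (95% interval -2.45 to -0.17, adjusted p = 0.334) that was called with the replicate number as a block (adjusted p = 0.0282) and with the 6 OHT-treated libraries alone (adjusted p = 0.00938). These fits called 1.37% and 0.832% of all transcripts lower. In 5 members, Lhx2, Lhx4, Lhx8, Lhx9 and Isl2, all 3 PRC1CPM libraries lay below all 3 PRC1CKO libraries, as they did for 4.35% of all transcripts. Lhx3 lay the other way, with 25.1, 24.7 and 29.6 in PRC1CPM against 12.7, 16.7 and 17.4 in PRC1CKO cells, at a log2 difference of 0.74 (95% interval -0.47 to 1.94, adjusted p = 0.8). Lhx1 had overlapping values in the lines (0.18, interval -1.14 to 1.5), and so did Lhx6 (-0.15, interval -0.78 to 0.49). Lhx5 overlapped as well (-1.1, interval -2.37 to 0.175, limma adjusted p = 0.571). In every pair with the same replicate number, Lhx5 and Lhx6 were lower in PRC1CPM than in PRC1CKO cells. For Lhx6 the values of replicate 1 were nearly equal, at 190.2 and 190.7. Without the genomic DNA correction the estimate for Lhx6 was 0.023, but the median of all transcripts moved from 0.097 to 0.265, and relative to it Lhx6 lay at -0.242 on both scales. In the same comparison, 5 markers of primitive endoderm had a median log2 difference of -0.742 (range -1.78 to 0.101), against 0.097 for all transcripts. Of these markers 1, Gata6, was called lower in PRC1CPM cells (-1.78, limma adjusted p = 0.000388).

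Whether the change itself differed between the lines was tested with the interaction of line and treatment. Without a replicate block, no member was called (limma, adjusted p under 0.05), against 0.0236% of all transcripts below 0. In that fit 4 members had an unadjusted p under 0.05, against 2.93% of all transcripts in either direction. edgeR and DESeq2 on the recovered reads also called none, with 3 members each at an unadjusted p under 0.05. All 10 estimates lay below 0, a smaller increase in PRC1CPM cells at a pseudocount of 1, as did 53.3% of all transcripts. The median was -1.24 against -0.0181. Where few reads were counted before treatment, the estimates depended on them. The ratio of summed reads for Lhx5 was 23.2 in PRC1CKO and 23.1 in PRC1CPM cells, and the other members had lower ratios in PRC1CPM cells. At a pseudocount of 0.1 the estimate of Lhx4 was 0.222. Between the lines, Lhx1 lay at 1.98 before and 0.18 after treatment, and Lhx3 at 1.12 and 0.74. On the scale without the genomic DNA correction, where the median of all transcripts was 0.43, all 10 were again below 0, and their median lay 1.24 below that of all transcripts, but 1 member had an unadjusted p under 0.05. That number was 2 without PRC1CKO UNT replicate 3, PRC1CKO OHT replicate 3 or PRC1CPM OHT replicate 2, 5 at a pseudocount of 0.1 and without PRC1CKO UNT replicate 1 or PRC1CPM UNT replicate 3, and 7 with the replicate number as a block. These numbers were not compared with the share of all transcripts in the same fits and are descriptions only. The 4 members on the deposited scale were Isl2 (-2.72, 95% interval -4.33 to -1.11, limma adjusted p = 0.551), Lhx9 (-1.71, interval -3.06 to -0.35), Isl1 (-1.58, interval -2.97 to -0.19) and Lhx8 (-1.69, interval -3.29 to -0.09). With the replicate number as a block, Isl2 (adjusted p = 0.00243) and Lhx9 (adjusted p = 0.0267) were called, against 1.45% of all transcripts called below 0 with the block, and Isl2 was also called without PRC1CKO UNT replicate 2 (-3.32, adjusted p = 0.0368). Without that library, 12 of all transcripts were called below 0. The estimates of Lhx3, Lhx4 and Lhx5 were the closest to 0 and changed sign in at least 1 alternative.

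**Figure D3:**
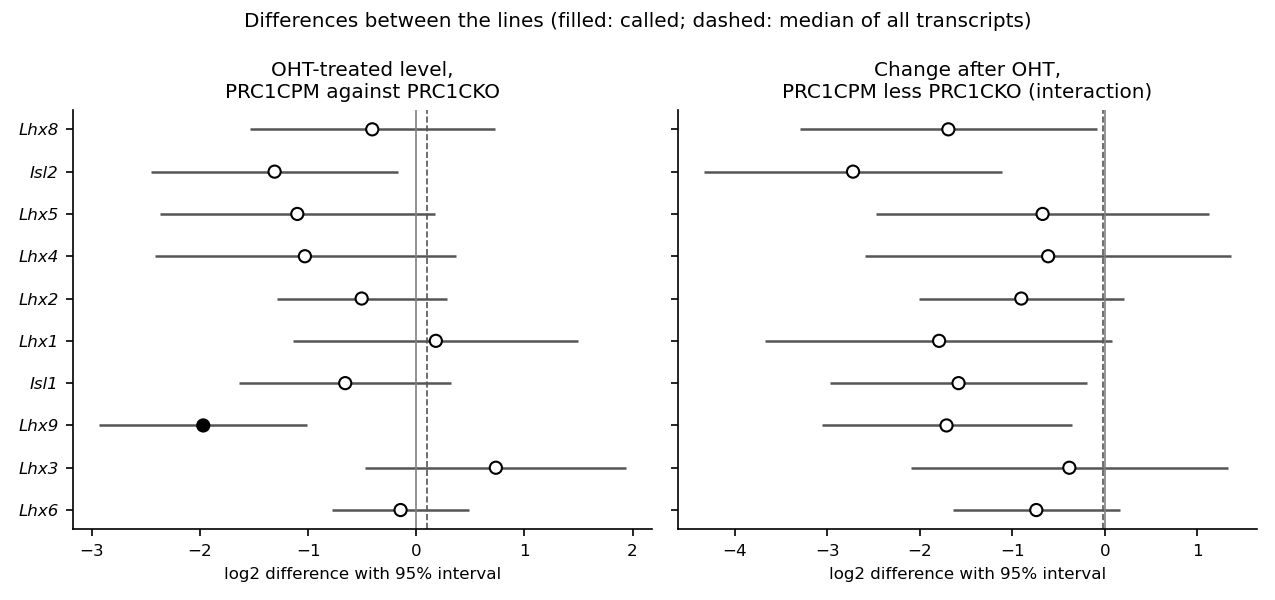
Left, log2 difference in level between OHT-treated PRC1CPM and PRC1CKO cells, and right, the difference between the lines in the log2 change after OHT treatment, both with 95% intervals. Lhx9 on the left, at -1.97, is the 1 filled point, and all 10 estimates on the right lie below 0.

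Before treatment, no member was called different between the lines without a replicate block, against 2.69% of all transcripts in either direction. With the replicate number as a block 4 were called, against 11.1% of all transcripts. Without the block, 3 members had an unadjusted p under 0.05, against 14.1% of all transcripts. edgeR and DESeq2 called none, with 0 and 1 at an unadjusted p under 0.05, and with the replicate number as a block 6 members had one. These numbers, too, were not compared with the share of all transcripts in the same fits. Lhx1 had the largest difference, 16.6, 7.54 and 5.42 in PRC1CPM against 14.9, 0 and 0 in PRC1CKO cells, at 1.98 on the log2 scale (95% interval 0.65 to 3.30, adjusted p = 0.0933). It was called without PRC1CKO UNT replicate 1 (3.31, adjusted p = 0.000231) and without PRC1CPM UNT replicate 2 (2.08, adjusted p = 0.0285), and at a pseudocount of 0.1 (4.07, adjusted p = 0.042), while its lowest estimate over the alternatives was 1.12. Without PRC1CKO UNT replicate 1, Lhx3 was called as well (1.83, adjusted p = 0.0492), and Isl2 was called without PRC1CKO UNT replicate 2 (2.02, adjusted p = 0.0356) and Lhx8 without PRC1CKO UNT replicate 3 (2.15, adjusted p = 0.0305). These fits called 1492, 219 and 170 of all transcripts higher and 78, 54 and 74 lower, against 374 and 81 with all libraries. Without PRC1CPM UNT replicate 2 the numbers were 616 and 90. With the replicate number as a block, Lhx1, Lhx6, Lhx8 and Isl2 were called higher in PRC1CPM cells, with adjusted p values of 0.00139, 0.0411, 0.0411 and 0.0123, and the block called 11.1% of all transcripts in either direction. In Lhx2, Lhx6, Lhx8, Isl1 and Isl2 the estimate for PRC1CPM against PRC1CKO cells was above 0 before treatment and below 0 after it, as in Isl2 with 1.41 and -1.31 and Isl1 with 0.92 and -0.66.

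The other LIM homeobox genes of the table, Lmx1a and Lmx1b, which specify midbrain dopamine neurons and the dorsal limb, were called higher in both lines. Lmx1a had 35.8, 38.5 and 37.2 normalised reads in untreated and 394, 400 and 530 in OHT-treated PRC1CKO cells, and its log2 fold change was 3.52 there and 2.77 in PRC1CPM cells. Lmx1b was already read at 98.3, 82.3 and 107 in untreated PRC1CKO and at 219, 165 and 236 in untreated PRC1CPM cells, where it was called higher than in PRC1CKO cells (1.09, limma adjusted p = 0.0139). After OHT treatment it rose by 2.74 and 1.33 on the log2 scale.

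The cofactors of the family had smaller changes, with a median log2 fold change of 0.51 in PRC1CKO and 0.75 in PRC1CPM cells. LDB1, the bridging cofactor, was encoded at 3100 ± 546 normalised reads (SD, n = 3) in untreated and 1900 ± 66.9 in OHT-treated PRC1CKO cells, and Ldb1 fell by 0.695 on the log2 scale (adjusted p = 0.0133), while its estimate in PRC1CPM cells was -0.39 (adjusted p = 0.281). Against 16.5% of all transcripts in PRC1CKO and 13.1% in PRC1CPM cells, 4 of the 10 cofactor genes were called higher in each line. Lmo1, Lmo2 and Lmo4, LIM-only proteins that compete for LDB1, were among them in both lines, with log2 fold changes of 2.34, 2.49 and 0.86 in PRC1CKO and 2.05, 2.22 and 0.99 in PRC1CPM cells. The fourth was Ssbp2, whose product stabilises LDB1, in PRC1CKO cells (0.99), and Ldb2, a relative of LDB1, in PRC1CPM cells (2.06, adjusted p = 0.0346). Ldb2 had 30.7, 14.8 and 0 normalised reads in OHT-treated PRC1CKO and 81.1, 61.9 and 54.8 in OHT-treated PRC1CPM cells, and was the 1 cofactor called different there (3.05, adjusted p = 0.00871). Ssbp3, Ssbp4, Lmo3 and Rlim, the last encoding a ubiquitin ligase for LDB1, were not called in either line.

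Of 9 partners and targets of LIM homeobox proteins, 8 had rows in the table and 7 were tested, and in each line 5 were called higher and 1 lower. Of all 16940 transcripts tested, 2787 were called higher and 524 lower in PRC1CKO cells, and 2226 and 237 in PRC1CPM cells. Slc18a3 and Slc5a7, which encode the vesicular acetylcholine and the choline transporter of cholinergic neurons, had log2 fold changes of 1.70 and 4.36 in PRC1CKO and 1.54 and 2.15 in PRC1CPM cells. Mnx1, a motor neuron factor, went from 2.98, 2.31 and 7.61 to 48.8, 49.98 and 30.5 in PRC1CKO cells (3.15), and Neurog2 and Foxa2, proneural and midline factors, were called higher in both lines. Otx2, a partner of LHX1 in the head organiser, was called lower in both, by -1.01 in PRC1CKO and -1.20 in PRC1CPM cells. Cga, the pituitary hormone subunit gene that LHX3 activates, was not called in either line, and Pou1f1 had no read in any library.

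ESC markers were read in all 4 conditions, and markers of neurons were called in both directions. The 7 ESC markers tested summed to 64831 ± 16002 normalised reads in untreated and 47321 ± 4232 in OHT-treated PRC1CKO cells (SD, n = 3). In PRC1CPM cells the sums were 61831 ± 11597 and 51814 ± 14624, with Tdgf1 the most abundant in all conditions and none at 0. Fgf4 was called lower in both lines (-1.06 and -0.85) and Sox2 in PRC1CKO cells (-0.89), while Pou5f1, Nanog, Zfp42, Esrrb and Tdgf1 were not called. Of 8 markers of postmitotic neurons, 2 were called higher and 3 lower in PRC1CKO cells, and 2 higher and 1 lower in PRC1CPM cells. Over all 16940 transcripts these numbers were 2787 and 524, and 2226 and 237. The markers had medians of 0.09 and 0.18, against 0.12 and 0.0996 for all transcripts. Rbfox3 (1.39 and 0.90) and Map2 (0.79 and 0.66) were the higher ones, and Snap25 was lower in both lines (-1.99 and -1.35), with Tubb3 and Stmn2 lower in PRC1CKO cells. The summed level of the 8 markers was 9972 ± 2541 before and 9000 ± 1310 after treatment in PRC1CKO cells (SD, n = 3). It was 9159 ± 1375 and 9368 ± 2257 in PRC1CPM cells, with none at 0. Stmn2, the most abundant, made up much of it, with 5930 and 3880 in PRC1CKO and 5070 and 3830 in PRC1CPM cells. The sums therefore do not give the direction of the other markers. Whether neurons were present, and their part in the levels of the LIM homeobox genes, was not tested.

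Most tested markers of primitive endoderm and mesoderm were called higher in the same samples. Primitive endoderm markers were called higher in 3 of 5 cases in PRC1CKO and in 5 of 5 in PRC1CPM cells, against 16.5% and 13.1% of all transcripts. Dab2 and Sox7 were not called in PRC1CKO cells (limma adjusted p = 0.246 and 0.0586). The summed levels went from 791 ± 402 to 2454 ± 406 and from 540.1 ± 65.1 to 1376 ± 255 (SD, n = 3), with Dab2 or Gata6 the most abundant and none at 0. Gata6 rose from 156 ± 94.7 to 1100 ± 232 (SD, n = 3) in PRC1CKO cells. Between the OHT-treated lines Gata6 was called lower in PRC1CPM cells (-1.78, limma adjusted p = 0.000388). Between the untreated lines Sox7 was called lower in PRC1CPM cells (-2.26, limma adjusted p = 0.000513), and the median of the 5 markers was -0.59, against 0.119 for all transcripts. Of 3 mesoderm markers tested, T and Eomes were called higher in both lines and Mixl1 in neither. With Mesp1 included, they summed to 154 ± 96.4 before and 415 ± 93.2 after treatment in PRC1CKO cells (SD, n = 3). In PRC1CPM cells the sums were 168 ± 80.9 and 423 ± 155. Whether such cells were present, and their part in the levels of the LIM homeobox genes, was not tested.

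**Figure D4:**
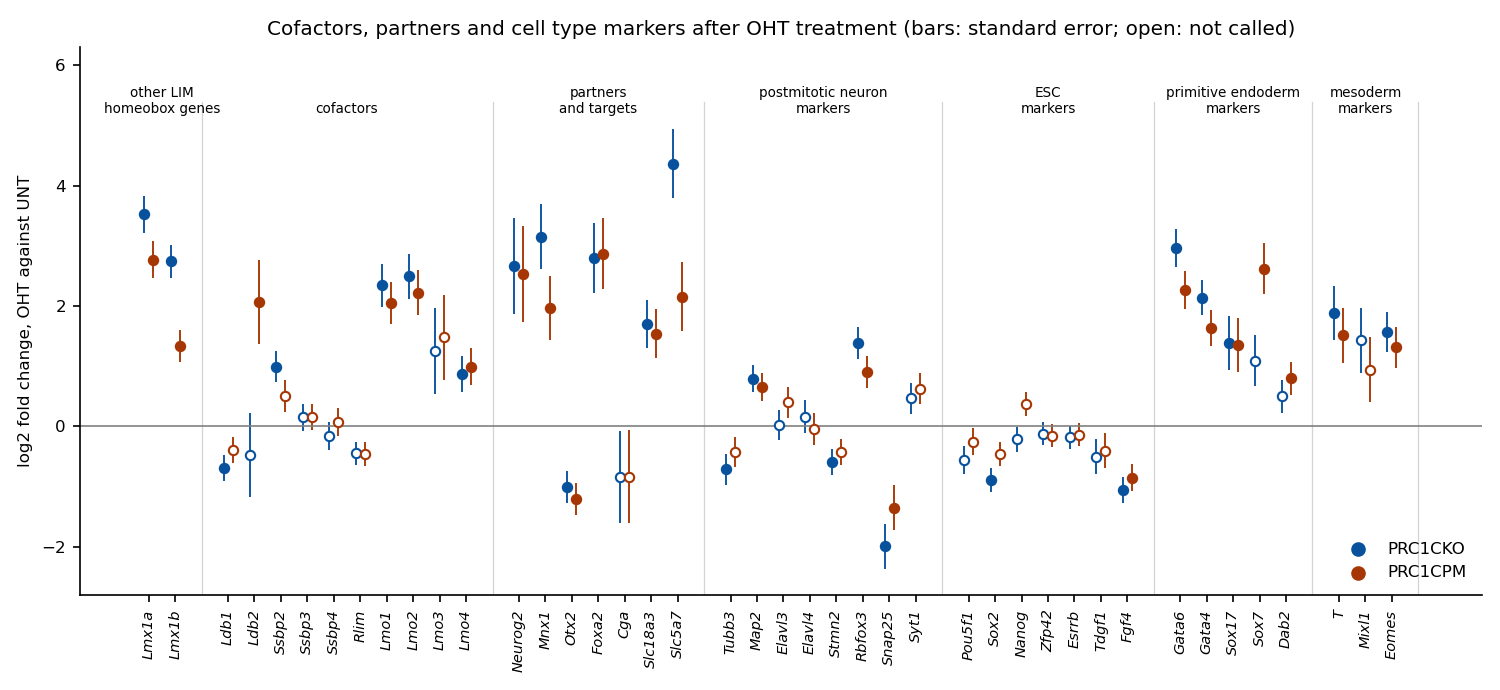
Log2 fold change after OHT treatment (vertical axis) with its standard error for the other LIM homeobox genes, the cofactors, the partners and targets, and the cell type markers. Slc5a7 at 4.36 and Lmx1a at 3.52 in PRC1CKO cells are the highest points, and most ESC and neuron markers lie near or below 0.

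Of the genes next to the members, 2 were called higher in PRC1CKO and 1 in PRC1CPM cells, against 16.5% and 13.1% of all transcripts. Within 10 kb of a member lay 6 other transcripts, of which 4 were tested. Lhx1os, a long non-coding RNA that starts 125 bases from the start of Lhx1 on the other strand (chr11:84525660-84535831), had 5.96, 1.54 and 3.38 normalised reads in untreated and 34.4, 22.2 and 46.2 in OHT-treated PRC1CKO cells, and was called higher in both lines (2.99 and 2.92). Whether strand was used in counting is not given in the sources used here, so reads that run past the start of either gene could not be assigned. Aatf, 5877 bases from Lhx1, was called higher in PRC1CKO cells (0.73) and not in PRC1CPM cells (0.25). Qsox2 next to Lhx3 and Scaper next to Isl2, both expressed at over 1000 normalised reads, had log2 fold changes between -0.13 and -0.03. AI606473, 260 bases from the start of Lhx8, had 9 reads over all 12 libraries and was not tested.

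Genes with the most similar pattern over the 12 libraries were found by the root mean square difference of log2(normalised read count + 1), each gene centred on its own mean. The closest to Isl2 was Dlx2, a homeobox gene of the ventral forebrain (0.31, against a standard deviation of 1.96 for Isl2 itself), and the closest to Lhx8 were Sim2 and Ebf3 (0.68 and 0.71, against 2.65). Pcdh10 was closest to Lhx2 (0.27), Olig2, the motor neuron progenitor factor, to Lhx4 (0.53), and Nr4a2, a dopamine neuron factor, to Lhx9 (0.67). The closest to Lhx5 were 5033428I22Rik and Hoxd12 (0.61 and 0.70), and to Lhx1 they were Cdh11 and Ankrd63 (0.64 and 0.68). Lhx6, which varied least, was matched by Adamts3 and Slc16a10 (0.14 and 0.15), Isl1 by Henmt1 and Sycp1 (both 0.31) and Lhx3 by Rab40b and Npw (0.34 and 0.37). These measures share the 12 libraries and their scale and are descriptions only.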

How the data were processed

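The authors removed rDNA reads with Bowtie 2, aligned the rest to concatenated mm10 and dm6 with STAR and then Bowtie 2, kept unique reads, used Sambamba to discard PCR duplicates, and took counts for a non-redundant set of genes. Their deposited signal is the normalised read count, the count divided by a size factor from Drosophila reads corrected by gDNA-seq. The authors' deposited log2 fold changes and adjusted p-values, and a list of partially derepressed genes, were not used. In every library 100% of values were whole multiples of the value of 1 read (tolerance 0.02), which gave the reads. limma 3.58.1 (R 4.3.3) was run on log2(normalised read count + 1) (mean-variance trend, 1 mean for each of 4 conditions, no block), with Benjamini-Hochberg adjustment over 16940 transcripts. edgeR on the recovered reads called 2702 transcripts higher and 549 lower in PRC1CKO cells, and 2253 and 245 in PRC1CPM cells. Alternatives were TMM, a pseudocount of 0.1, all transcripts without a minimum count, the scale without gDNA-seq, edgeR 4.0.16 and DESeq2 1.42.0 on recovered reads, the replicate block, the compared libraries alone, every transcript of a member and each library left out. Replicates with the same number deviated together from the means of their conditions in 17 of 18 pairs (correlation over 0.1, mean 0.205). The 36 other pairs had a mean of -0.102 and a maximum of 0.0275. Deviations from a mean sum to 0 within each condition, so the mean of the other pairs follows from that of the same-number pairs and is not a separate comparison. The exception, 0.0988 between PRC1CKO UNT 2 and PRC1CKO OHT 2, lay just under the cut of 0.1. By the cut, the numbers pair the libraries in the comparisons other than PRC1CKO OHT against UNT and the interaction. The main fit had no block in any comparison, so its calls leave this pairing out. Block values are given for the interaction as well, where they change calls. Among libraries of the same condition none were duplicates, and libraries of different conditions were not checked for this. The 10 members were given by name. All members, and listed cofactors, partners, markers, genes within 10 kb and the 2 most similar genes for each member are named, and members and lists were chosen with earlier results of these data known. Reads per library (14668159 to 27016156) leave genes with few reads imprecise, and intervals of read ratios cover counting error only. Promoter sequences came from RefSeq (GRCm38.p6). Python 3.11.15 with pandas 2.3.3 and matplotlib 3.10.9 was used for summaries and plots.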

Additional observations from a re-analysis of the deposited data

How the results depend on the processing

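The counts of members called rest on few reads before treatment. In PRC1CKO cells 9 to 10 members were called higher across the 12 fits that left out 1 library, and 9 or 10 under the other alternatives, with Lhx3 the only one lost, edgeR and DESeq2 included (12 of the 12 transcripts of members were called when every transcript was counted). In PRC1CPM cells 5 to 7 were called without 1 library and 4 with a pseudocount of 0.1, which lost Lhx1, Isl1 and Isl2, while TMM called 5 (Lhx1 and Isl2 lost), and DESeq2 and the fit without the low-count filter called 6 (Lhx1 lost). Of all transcripts, 2226 were called higher there with all libraries, 1439 to 2547 without 1 library and 2064 with a pseudocount of 0.1. TMM called 2396, DESeq2 2313 and the fit without the low-count filter 2081 of 19791. Lower in PRC1CPM than in PRC1CKO cells after OHT treatment were 0 to 1 without 1 library, 0 without the low-count filter and 0 with a pseudocount of 0.1 (Lhx9 lost, adjusted p = 0.0812 and 0.0504), 2 with the compared libraries alone and 2 with every transcript of a member. Of all transcripts, 37 were called lower there with the deposited scale, 261 with TMM, 24 with a pseudocount of 0.1 and 141 with the compared libraries alone. The number was 21 without the low-count filter, 78 without PRC1CKO UNT replicate 1 and 17 without PRC1CKO OHT replicate 2. Between the untreated lines, 0 to 2 were called without 1 library and 1 with a pseudocount of 0.1 (Lhx1), and 0 to 1 had a called interaction without 1 library. The 2 calls came without PRC1CKO UNT replicate 1, where 1492 of all transcripts were called higher and 78 lower, against 374 and 81 with all libraries. At a pseudocount of 0.1 these numbers were 323 and 77. The called interaction came without PRC1CKO UNT replicate 2, with 12 of all transcripts called below 0. With the replicate number as a block, 10 members were called higher in PRC1CKO and 8 in PRC1CPM cells, 2 were lower in OHT-treated PRC1CPM cells, 2 had a called interaction and 4 differed between the untreated lines, and the block changed no other call. The block also called more of all transcripts, 232 against 37 lower in OHT-treated PRC1CPM cells, 246 against 4 with an interaction below 0 and 1884 against 455 between the untreated lines. All transcripts were called higher and lower in PRC1CKO cells 2787 and 524 times with the deposited scale and 2845 and 1133 times with TMM. Without 1 library they were called higher 2016 to 3729 times in PRC1CKO cells.

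Signs changed for estimates that were not called. Between the OHT-treated lines these were Lhx1 (-0.107 to 0.428 without 1 library, the lowest without PRC1CPM OHT replicate 1) and Lhx6 (0.023 without the gDNA-seq correction, and -0.258 to 0.0555 without 1 library, the highest without PRC1CPM OHT replicate 2). Relative to the median of all transcripts in the same fit, Lhx6 lay at -0.242 and -0.195 in these fits and so stayed below it. In the interaction they were Lhx3 (-1.09 to 0.418, the highest without PRC1CKO UNT replicate 2), Lhx4 (0.222 with a pseudocount of 0.1) and Lhx5 (-1.23 to 0.0994, the highest without PRC1CKO UNT replicate 1). Between the untreated lines they were Lhx5 (-1.2 to 0.136, above 0 without PRC1CKO UNT replicate 3 or PRC1CPM UNT replicate 3, though in the latter at -0.021 relative to the median of all transcripts) and Lhx9 (-0.84 to 0.417, above 0 without PRC1CKO UNT replicate 2 or PRC1CPM UNT replicate 1). The cause was not tested.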
